A study of Mus musculus with 8 samples.

Results

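SRC-3KO regulatory T cells (Tregs) were compared with control Tregs in tumor-bearing mice. The comparison holds 4 of the 8 RNA sequencing libraries of the series, 2 per genotype, and was read over all 55487 genes of the deposited expression table. Its members are the libraries named SRC_3KO_GFP and FOXP3cre_GFP, whose labels give the condition as SRC-3KO or Control and the tumor status as tumor bearing. All 4 are from C57BL/6 mice. The cells came from the spleen and were sorted for GFP, and cDNA was amplified with SMART-Seq v4, a kit for small amounts of RNA. The exons deleted in SRC-3KO, the Cre driver and alleles of either group beyond these names, the tumor, and the age of the mice are in none of the sources used here. No label says that replicates came from separate animals, so p-values measure only the spread between these samples, which may be technical.

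Tregs are CD4 T cells whose fate is set by Foxp3, a transcription factor, and which hold other lymphocytes in check through inhibitory receptors, capture of IL-2 and release of suppressive cytokines. In tumors they are known for holding back the immune attack on cancer cells. SRC-3, the product of Ncoa3, belongs to the p160 family of coactivators, which bring histone acetyltransferases to genes that nuclear receptors and other transcription factors occupy. The design text asks what in the transcriptome of SRC-3KO Tregs may account for their action against tumors.

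Values are FPKM, fragments scaled per kilobase of transcript and by library size, so that levels can be compared between genes per length. Differences are log2(FPKM + 1) of SRC-3KO minus control with a standard error (SE), from limma with 2 libraries per group. A gene was called at a Benjamini-Hochberg adjusted p under 0.05 over the 12859 genes that reached 1 FPKM in at least 2 libraries, and "higher" and "lower" without a call describe levels only. The FPKM sums were 408458 to 514349 and 12285 to 12881 genes reached 1 FPKM. Read depth is unknown. Across the tested genes the SRC-3KO libraries correlated with each other at 0.98, the controls at 0.94, and libraries of different genotype at 0.92 to 0.93.

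The sorted cells carried Treg transcripts in every library, and the controls differed from each other in transcripts of other cell types. Foxp3 stood at 18.4 and 14.8 FPKM in control replicates 1 and 2 and at 20.1 and 28.8 in SRC-3KO replicates 1 and 2. Il2ra, the high-affinity chain that binds IL-2, was even in the controls (291 FPKM in each) and stood at 497 and 621 FPKM in SRC-3KO. Cd4 stood between 79.9 and 134 FPKM in the 4 libraries and Cd3e between 316 and 465, while Cd8a was at most 0.730 FPKM. Neutrophil genes and several defining macrophage genes were high in control replicate 2. Its summed level over 18 neutrophil genes was 4628 FPKM, against 5.94 in control replicate 1 and 1.91 and 0.507 in SRC-3KO. Lyz2, the lysozyme of macrophages and neutrophils, stood at 1108 FPKM there and at 0.404, 0.771 and 0.770 in the other 3 libraries. Csf1r, Cd14, Adgre1, Ly6g and Cxcr2 were each at most 0.249 FPKM in those 3 libraries, and in control replicate 2 they were between 8.79 and 68.4 FPKM. The sum over 14 erythroid and platelet genes was likewise highest in control replicate 2, at 63.1 FPKM against 2.36 to 4.42. NK or CD8 T cell and stromal sums ranged from 7.56 to 19.7 FPKM over the 4 libraries. B cell and plasma cell transcripts, in contrast, were present in both controls.

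**Figure D1:**
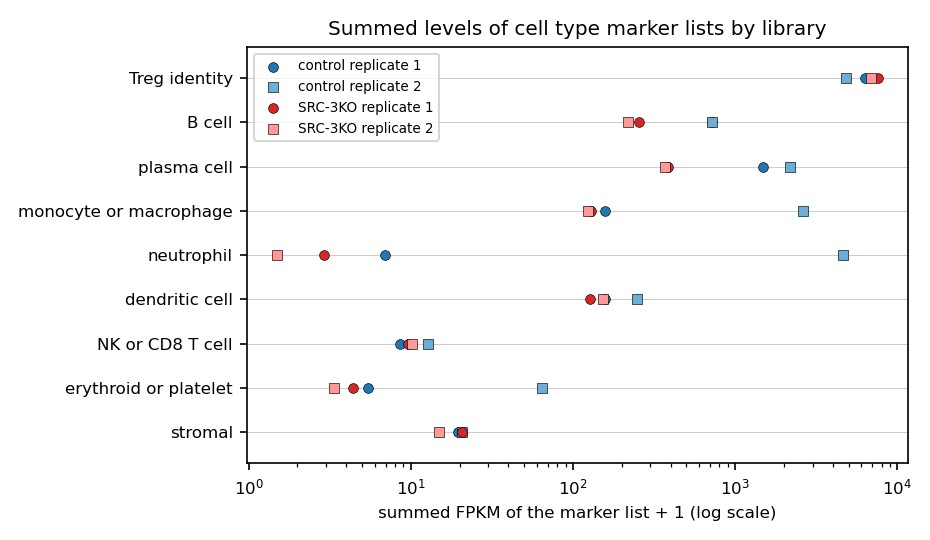
Summed FPKM + 1 (log axis) of 9 marker lists in each library, with circles for replicate 1, squares for replicate 2, blue for control and red for SRC-3KO. The neutrophil sum is 4628 FPKM in control replicate 2 and at most 5.94 in the other 3 libraries, whereas the B cell sums of both controls (720.2 and 721) lie above those of both SRC-3KO libraries (255 and 217).

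Few genes were called, and most of them belong to B lineage cells. limma called 14 of 12859 genes, 2 higher (0.0156% of the genes tested) and 12 lower (0.0933%) in SRC-3KO. At an unadjusted p under 0.05 in limma there were 2119 genes (16.5%), of which 1339 were higher and 780 lower. Both SRC-3KO libraries lay above both controls for 3535 genes (27.5%) and below both for 3207 genes (24.9%). Scaling by median-of-ratios gave 2 higher and 4 lower. The count depended on single libraries. Without control replicate 1, 163 genes (1.31% of 12457) were called higher and 296 (2.38%) lower, and without control replicate 2 the counts were 1015 (8.15% of 12460) and 1495 (12%). Leaving out SRC-3KO replicate 1 gave 6 (0.0486%) and 25 (0.202%), and leaving out SRC-3KO replicate 2 gave 5 (0.0405%) and 26 (0.211%). In these fits the lone library of a group is assumed to vary like the other group. Of the 14 genes, 8 could be tested in each fit that left out a control and 12 in each that left out an SRC-3KO library, and each of those was called in the same direction.

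Ncoa3 (ENSMUSG00000027678, chr2:165992636-166073242 of mm10, plus strand), the gene named by the genotype, stood at 37.7 and 45.4 FPKM in control replicates 1 and 2 and at 47.5 and 27.7 in SRC-3KO replicates 1 and 2. The groups overlapped: SRC-3KO replicate 1 was the highest of the 4 and replicate 2 the lowest. The difference was -0.18 (SE 0.30, limma adjusted p = 0.770). It turned to 0.01 when libraries were scaled to the protein-coding total and to 0.19 without SRC-3KO replicate 2. Since the deleted exons are not given, the count may rest on parts of the gene that were kept, so the values do not check the genotype, and "SRC-3KO" below means the libraries labelled so.

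Genes of plasma cells and B cells made up 10 of the 12 genes called lower. Jchain (chr5:88519809-88527891, minus strand), which links antibody molecules into polymers, stood at 43.5 and 61.7 FPKM in the controls against 0 and 0.581 in SRC-3KO. The 2 genotypes lay far apart, with a difference of -5.39 (SE 0.32, limma adjusted p = 0.0204). Igkc (chr6:70726435-70726966, plus strand), the constant region of the kappa light chain, stood at 983 and 1612 FPKM against 22.4 and 40.4 (-5.34, SE 0.39). Mzb1, a chaperone of antibody secretion, stood at 16.9 and 19.1 FPKM against 0.0491 and 0.507 (-3.92, SE 0.28). Cd79a (chr7:24897381-24902197, plus strand), a signalling chain of the B cell receptor, stood at 10.3 and 8.74 FPKM against 0.395 and 0.308 (-2.96, SE 0.24, adjusted p = 0.0410). Ly6d (chr15:74762056-74763620, minus strand), a surface protein of B lineage cells, stood at 30.2 and 20.1 FPKM against 0.475 and 1.17 (-3.84, SE 0.32). The other 5 were antibody segments, which share sequence with their neighbours, so that reads may be split among them. Of these, Ighv6-3 stood at 106 and 62.2 FPKM against 0.0886 and 0, and Igkj1 at 199.8 and 229.5 against 3.79 and 10.4. Ighv11-2 (-4.09), Ighj2 (-4.55) and Ighj4 (-4.17) fell as well.

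The controls were alike in summed B cell transcripts and differed in some antibody light chain genes. In control replicates 1 and 2 Igkc stood at 983 and 1612 FPKM and the constant region Iglc2 at 108 and 22.3, while Igkj1 was closer at 199.8 and 229.5. The 20 B cell markers summed to 720.2 and 721 FPKM in control and to 255 and 217 in SRC-3KO, and the 8 that passed the filter on low values lay below both controls. Some of these, such as Cd79a, passed only through the controls and could lie only below. Ighm, the heavy chain of IgM, made up most of each sum at 646, 657, 239 and 201 FPKM. Ms4a1, which encodes the B cell surface protein CD20, was low everywhere, at 0.812 and 1.70 FPKM in the controls against 0.00600 and 0.0801 in SRC-3KO. Sdc1, the surface marker of plasma cells, stood at 0.102 and 1.503 FPKM in the controls against 0.0933 and 0.0569 in SRC-3KO. Xbp1, chosen after its values were seen, a factor that plasma cells and stressed cells use for secretion, overlapped between the groups (216 and 264 against 241 and 213 FPKM). In these bulk samples, fewer cells of a type and less RNA per cell cannot be told apart.

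Apoe and Ifitm1 were the 2 genes called lower outside the B lineage, and both were alike in the 2 controls. Apoe (ENSMUSG00000002985, chr7:19696109-19699188, minus strand), a lipid carrier made by macrophages and other cells, stood at 39.8 and 43.0 FPKM in the controls against 1.39 and 1.48 in SRC-3KO (-4.12, SE 0.20, limma adjusted p = 0.0117). The sums of 20 monocyte and macrophage genes, Apoe among them, were 156 FPKM in control replicate 1, 2600.0 in control replicate 2, and 128 and 122 in SRC-3KO. The part of those cells in the Apoe difference was not tested. Ifitm1 (ENSMUSG00000025491, chr7:140967221-140969825, plus strand), a membrane protein that interferons induce and that blocks virus entry, stood at 12.5 and 17.5 FPKM against 0.0365 and 0 (-3.96, SE 0.26, adjusted p = 0.0274). Its neighbour Ifitm3 was uneven in control, at 19.0 and 405 FPKM, against 1.21 and 1.19 in SRC-3KO (-5.36, SE 1.34, adjusted p = 0.189). Ifitm2 overlapped between groups, at 31.3 and 128 against 47.5 and 42.5 FPKM.

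The 2 genes called higher were both small RNA genes. Mir24-2 (ENSMUSG00000065541, chr8:84208815-84208921, plus strand) was at 880.2 and 904 FPKM in SRC-3KO, whereas each control has it listed at 0 (limma adjusted p = 0.000145). Because both controls are listed at 0, no fold is given. The value is that of the annotated hairpin and does not measure the mature miRNA. The RefSeq hairpin is shown because its mature arm is shared: the capitals in it mark miR-24-3p, and those in the mature form mark the seed, bases 2 to 8, with which a miRNA recognises its targets.
Mir24-2 hairpin: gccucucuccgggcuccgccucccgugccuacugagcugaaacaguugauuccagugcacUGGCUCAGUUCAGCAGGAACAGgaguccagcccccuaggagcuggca
mmu-miR-24-3p: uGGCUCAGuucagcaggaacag
The other gene of this miRNA, Mir24-1 (chr13:63301208-63301275), gives the same 22 bases, and reads of the 2 may be split. Its values were 1.80 and 2.35 FPKM in control replicates 1 and 2, and 5.83 and 4.35 in SRC-3KO, far below Mir24-2. Mir23a and Mir27a, the other miRNAs of the chromosome 8 cluster, were at most 0.949 FPKM in any library. Mir24-2 overlaps the first bases of the lincRNA Gm26532, which stood at 0 and 0.126 FPKM in the controls against 2.55 and 2.62 in SRC-3KO. These 4 neighbours were chosen after their values were seen.

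Snora73b (ENSMUSG00000065353, chr4:132352322-132352526, minus strand), a small nucleolar RNA that acts in the processing of ribosomal RNA, stood at 0.158 and 0.317 FPKM in the controls against 21.9 and 26.9 in SRC-3KO (4.36, SE 0.24, limma adjusted p = 0.0163). It lies within Rcc1 beside its near copy Snora73a (chr4:132352775-132352979, minus strand). The pair is shown because 7 of their 205 bases differ, marked in capitals (96.6% identity), so reads may be split between them (genome sequence of the annotated intervals).
Snora73b: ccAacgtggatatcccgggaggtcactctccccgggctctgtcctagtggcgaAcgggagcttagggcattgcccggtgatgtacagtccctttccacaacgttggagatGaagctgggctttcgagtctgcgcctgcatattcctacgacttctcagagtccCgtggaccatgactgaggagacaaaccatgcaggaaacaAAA
Snora73a: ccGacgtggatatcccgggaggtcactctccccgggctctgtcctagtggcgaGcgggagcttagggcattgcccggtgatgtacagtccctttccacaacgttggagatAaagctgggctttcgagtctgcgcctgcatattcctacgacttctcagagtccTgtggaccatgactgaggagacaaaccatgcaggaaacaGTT
Snora73a, chosen after its values were seen, stood at 0.160 and 0.425 FPKM in the controls against 1.27 and 4.24 in SRC-3KO, the same order at a lower level. Of 100 small nucleolar RNA genes tested, 60 lay above both controls and 4 below, with a median difference of 0.84, whereas all tested genes had a median of -0.02. For 186 miRNA genes the counts were 70 and 38 with a median of 0.20. The 100 small nucleolar RNA genes summed to only 141 and 115 FPKM in the controls, and to 287 and 377 in SRC-3KO. Genes that passed the filter on low values only through SRC-3KO, such as Snora73a and Mir24-2, could lie only above. Within Ddx5, an RNA helicase gene that stood at 39.6 and 36.9 FPKM in the controls against 67.99 and 72.1 in SRC-3KO, the miRNA gene Mir3064 stood at 1.20 and 2.32 against 16.3 and 23.03. When only genes with at least 5 FPKM in 2 libraries were tested, 11 of 8450 were called higher (0.13%) and 19 lower (0.225%), and Mir3064, also chosen after its values were seen, was among the former.

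Among protein-coding genes, 0 were called higher by limma, with 1095 of 9635 higher at an unadjusted p under 0.05. The 15 with the widest gap between the groups included genes of the cell cortex, the nucleus and the Treg surface. Myh9 (ENSMUSG00000022443, chr15:77760587-77842175, minus strand), the heavy chain of non-muscle myosin, stood at 7.75 and 13.9 FPKM in the controls against 73.6 and 70.8 in SRC-3KO. With limma the difference came to 2.68 (SE 0.29, adjusted p = 0.0847), or to 2.10 once the trend in GC content and transcript length was removed. Tln1, which couples integrins to actin, stood at 8.44 and 19.7 FPKM against 67.8 and 64.2 (2.26, SE 0.39). Tnfrsf8 (ENSMUSG00000028602, chr4:145267137-145315164, minus strand), which encodes the activation receptor CD30, stood at 10.8 and 17.4 FPKM against 60.7 and 78.2 (2.25, SE 0.28, adjusted p = 0.118), and the trend removal left it at 2.10. Notch1, a receptor for membrane ligands, stood at 3.27 and 4.39 FPKM against 16.3 and 20.2 (2.0, SE 0.24, adjusted p = 0.103), and at 1.33 with the trend removed. Areg, an epidermal growth factor family ligand that Tregs use in tissue repair, stood at 2.57 and 2.88 FPKM against 11.8 and 12.8 (1.84, SE 0.22, adjusted p = 0.0978). Areg and the gut homing receptor Gpr15 (5.36 and 7.49 against 22.4 and 22.2 FPKM) lay further from control when the trend was removed, at 2.10 and 1.89.

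Others of the 15 served splicing, secretion and lipid metabolism. Srrm2, a scaffold of nuclear speckles, was the same in both controls, at 10.7 and 10.6 FPKM, and stood at 31.9 and 35.3 in SRC-3KO (1.57, SE 0.18, limma adjusted p = 0.0978). Fasn, the fatty acid synthase, was as even, at 14.4 and 14.97 FPKM against 42.4 and 41.7 (1.46, SE 0.17), and the trend removal cut it to 0.77. Sympk, a scaffold of mRNA 3' end processing, stood at 0.662 and 2.27 FPKM against 9.01 and 12.4, and Numa1, which anchors the mitotic spindle, at 1.48 and 4.84 against 15 and 16.4. Sec16a, which organises exit sites of the endoplasmic reticulum, stood at 2.94 and 3.73 FPKM against 13.3 and 12.1. The neurofilament gene Nefh and the lipid flippase gene Atp9a were also among the 15. With the filter at 5 FPKM, Myh9, Notch1 and Srrm2 were called higher. Without control replicate 1, limma gave Myh9 an adjusted p of 0.00768, Tln1 0.0116, Tnfrsf8 0.0242 and Areg 0.0253, and without control replicate 2 each had 0.0284. Without SRC-3KO replicate 1 or 2 none of these 4 passed: the adjusted p was 0.0642 and 0.0550 for Myh9, 0.213 and 0.196 for Tln1, 0.0854 and 0.173 for Tnfrsf8, and 0.213 and 0.281 for Areg.

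**Figure D2:**
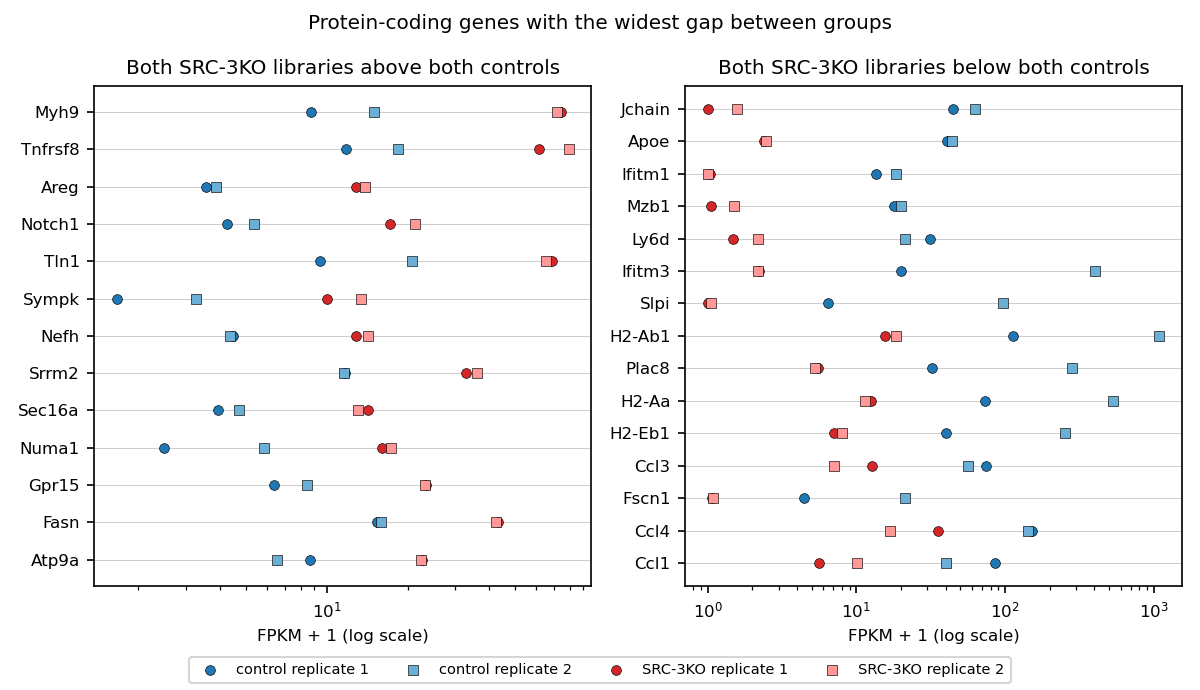
FPKM + 1 (log axes) of 13 of the 15 protein-coding genes with the widest gap above the controls (left) and of the 15 with the widest gap below (right), 1 point per library. On the left the controls of genes such as Srrm2 (10.7 and 10.6) and Fasn (14.4 and 14.97) coincide, and on the right genes such as H2-Ab1 and Ifitm3 are spread by control replicate 2.

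Differences went with transcript length. Of 429 protein-coding genes whose longest transcript exceeds 8000 bases, 62.7% lay above both controls and 7.69% below, with a median difference of 0.45. For 449 genes of 500 to 1000 bases 53.7% lay below and 5.12% above, with a median of -0.39. The controls differed from each other along the same axis. Control replicate 1 minus replicate 2 had a median of 0.48 for the shorter class and -0.17 for the longer, while the SRC-3KO libraries differed by at most 0.06 in any class. SRC-3KO stood further from control replicate 1 (-0.65 and 0.57) than from control replicate 2 (-0.14 and 0.36) in both classes. Removing each library's trend with GC content and length left 2 genes called higher and 9 lower. Together with leaving out control replicate 2, it took the counts from 1015 and 1495 to 125 and 136, and together with leaving out control replicate 1 from 163 and 296 to 124 and 304. These joint settings were chosen after seeing the data. Processed pseudogenes, which are short copies of spliced mRNAs, lay below both controls in 753 of 1893 cases and above in 133, and reads may be split between them and their parent genes.

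**Figure D3:**
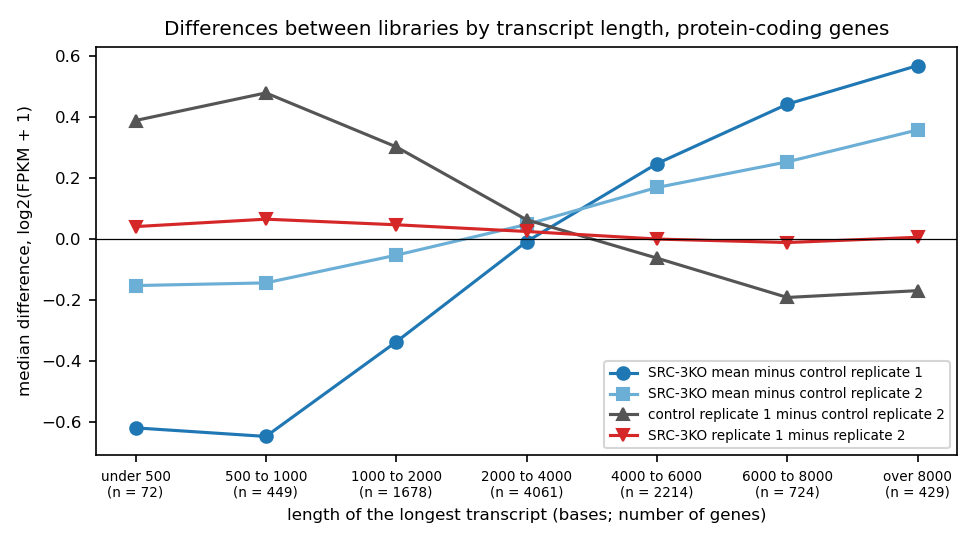
Median difference in log2(FPKM + 1) between libraries in 7 classes of longest transcript length, for protein-coding genes (numbers of genes under the axis). Both lines of SRC-3KO against a control lie higher for long than for short transcripts, control replicate 1 minus control replicate 2 runs from 0.39 in the shortest class to -0.17 in the longest, and the line between the SRC-3KO replicates stays within 0.06 of 0.

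Among the 15 protein-coding genes furthest below the controls, some were alike in the 2 controls and others were spread by control replicate 2. Ccl3 and Ccl4, chemokines of inflammation, were closer in the 2 controls than Ccl1. Ccl3 stood at 73.9 and 55.1 FPKM in the controls against 11.8 and 6.02 in SRC-3KO (-2.78, SE 0.34, limma adjusted p = 0.107), and Ccl4 at 149.9 and 142 against 34.2 and 15.8 (-2.59, SE 0.37). Ccl1, a ligand of Ccr8, stood at 84.2 and 39.2 FPKM against 4.61 and 9.03 (-2.96, SE 0.45). Slpi, a protease inhibitor of myeloid and epithelial cells, was uneven at 5.48 and 96.1 FPKM against 0 and 0.0539, as was Plac8, a lysosomal protein of myeloid and lymphoid cells, at 31.2 and 283 against 4.52 and 4.26. Fscn1, an actin bundler of dendritic cells, stood at 3.42 and 20.3 FPKM against 0.0599 and 0.0873. In the same libraries the neutrophil and macrophage sums were highest in control replicate 2, and their part in these differences was not tested. In control replicate 1 those sums were 5.94 and 156 FPKM, also above the SRC-3KO libraries (1.91 and 0.507, and 128 and 122). The macrophage sum includes Apoe, itself among these 15 genes, at 39.8 FPKM in control replicate 1 against 1.39 and 1.48 in SRC-3KO. It is therefore not independent of them, and it was not taken without Apoe.

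MHC class II genes, which B cells, macrophages and dendritic cells use to present antigen, were lower in SRC-3KO against each control, by more against replicate 2. H2-Aa stood at 71.8 and 532 FPKM in the controls against 11.6 and 10.5 in SRC-3KO (-4.04, SE 0.89, limma adjusted p = 0.165). H2-Ab1 stood at 113 and 1094 FPKM against 14.5 and 17.6, H2-Eb1 at 39.4 and 254 against 6.04 and 7.06, and the invariant chain Cd74, chosen after its values were seen, at 311 and 2130.0 against 166 and 195. The peptide loaders H2-DMa and H2-DMb2 were even in control. H2-DMa stood at 144 and 149 FPKM against 46.0 and 59.2 (-1.47, SE 0.21), and H2-DMb2 at 15.5 and 13.03 against 1.86 and 3.24 (-2.13, SE 0.28, adjusted p = 0.121). Of 11 members tested, 8 lay below both controls and 1, Cd83, above, with a median of -2.13. Of all tested genes 24.9% lay below both controls and 27.5% above. At an unadjusted p under 0.05 there were 5 lower and 1 higher and limma called 0. The median was -0.78 against control replicate 1 and -2.59 against replicate 2. B cell and, in control replicate 2, myeloid sums moved the same way, and their part was not tested. Promoters of this family carry a conserved Y box, and those of H2-Aa and H2-Eb1 are shown because the genes moved together. The 250 bases before the RefSeq start (GRCm38, the build of mm10) are chr17:34287824-34288073 on the minus strand and chr17:34305617-34305866 on the plus strand, with the motif CTGATTGG in capitals.
H2-Aa: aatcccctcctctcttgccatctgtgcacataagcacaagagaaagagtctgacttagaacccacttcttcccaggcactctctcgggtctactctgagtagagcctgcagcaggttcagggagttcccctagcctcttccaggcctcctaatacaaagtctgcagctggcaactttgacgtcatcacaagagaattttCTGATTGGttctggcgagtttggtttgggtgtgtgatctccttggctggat
H2-Eb1: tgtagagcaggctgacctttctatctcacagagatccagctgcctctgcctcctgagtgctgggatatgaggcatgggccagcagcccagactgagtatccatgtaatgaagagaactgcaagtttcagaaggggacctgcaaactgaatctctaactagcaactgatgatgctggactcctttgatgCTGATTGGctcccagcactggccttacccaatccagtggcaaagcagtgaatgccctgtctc
The motif begins 51 bases before the start of H2-Aa and 62 before that of H2-Eb1. On either strand it is found in 1258 of 32851 promoter windows of this length (3.83%), and a match is a description, not a site.

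Genes of Treg identity stood higher in SRC-3KO. Of 23 tested members 14 lay above both controls and 1 below, against 27.5% and 24.9% of all tested genes. The same shares apply to each list count below. Beyond Apoe and Ifitm1, limma called no member of this or any list described below, against 14 of all 12859 genes. In this list 11 were higher and 1 lower at an unadjusted p under 0.05 in limma, against 1339 and 780 of all 12859 genes. The Ikaros family factors Ikzf4 and Ikzf2, partners of Foxp3, stood at 20.04 and 17.7 FPKM against 46.5 and 45.6 (1.24, SE 0.18), and at 14.8 and 22.9 against 56.6 and 43.0 (1.37, SE 0.28). Itgae, the integrin chain CD103, stood at 13.6 and 14.8 FPKM against 41.7 and 34.4 (1.36, SE 0.20, adjusted p = 0.121). The exception, Bach2, a repressor that keeps Tregs in a resting state, stood at 5.17 and 7.65 FPKM against 1.72 and 1.64 (-1.45, SE 0.27). The median of the list was 0.48 against control replicate 1, 0.67 against replicate 2 and 0.29 with the trend in GC content and length removed. Its sum was lowest in control replicate 2, which held the myeloid transcripts, at 4847 FPKM against 6304 in control replicate 1 and 7569 and 6917 in SRC-3KO.

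Receptors that mark activated Tregs were higher in part. Of 17 checkpoint receptors 9 lay above both controls and 1 below (median 0.37, and 0.46 with the trend removed), with 5 higher and 0 lower at an unadjusted p under 0.05 and 0 called by limma. Ctla4, which strips costimulatory ligands from other cells, stood at 151 and 136 FPKM against 231 and 288 (0.84, SE 0.22), and Tigit, an inhibitory receptor, at 163 and 122 against 267 and 246. Cd200, a ligand that calms myeloid cells, stood at 83.4 and 81.0 FPKM against 144 and 274, and Lag3, which binds MHC class II, at 8.78 and 11.4 against 17.0 and 26.6. Of 18 TNF receptor family costimulators and their adaptors 6 lay above and 0 below both controls, a share above that is near the 27.5% of all genes, with medians of 0.04 against control replicate 1 and 0.31 against replicate 2. Beside Tnfrsf8, the adaptor Traf1 stood at 42.1 and 54.2 FPKM against 102 and 133 (1.27, SE 0.23), and Tnfrsf9, the receptor 4-1BB, at 637 and 632 against 1475 and 1059 (0.98, SE 0.31). In the NF-kappaB pathway, which these receptors feed, 11 of 19 members lay above and 1 below (median 0.45, and 0.34 with the trend removed). Nfkbiz, a nuclear cofactor of NF-kappaB, stood at 1.35 and 2.13 FPKM against 6.00 and 8.38 (1.58, SE 0.28), and Nfkb2, the subunit of the alternative pathway, at 56.5 and 69.2 against 111 and 134 (0.95, SE 0.21).

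Among genes by which Tregs suppress or repair, the TGF-beta activators and the type 2 genes were higher and Prf1 was lower. Of 18 TGF-beta receptor, activation and SMAD genes 15 lay above both controls and 0 below (median 0.66, and 0.33 with the trend removed), with 12 higher at an unadjusted p under 0.05 and 0 called by limma. Itgb8 and Itgav, whose integrin frees latent TGF-beta, stood at 6.31 and 8.86 FPKM against 24.8 and 21.1 (1.49, SE 0.24), and at 17.1 and 21.98 against 56.8 and 48.4 (1.39, SE 0.21). Tgfb1 itself stood at 46.8 and 59.7 FPKM against 104 and 100.1, and Smad7, the feedback inhibitor, at 3.46 and 4.36 against 12.2 and 13.9 (1.52, SE 0.23). Of 14 tissue repair and type 2 genes 11 lay above and 0 below (median 0.75, and 0.58 with the trend removed), with 8 higher at an unadjusted p under 0.05. Il1rl1, the IL-33 receptor, was the most uneven within its groups, at 1.43 and 4.22 FPKM against 12.4 and 23.3 (2.34, SE 0.47). Rora stood at 10.1 and 9.82 FPKM against 21.9 and 20.2, and the cytokine Il5 at 0.303 and 0 against 2.19 and 3.46. Il5 passed the filter on low values only through SRC-3KO and could lie only above. Of 17 suppressive effectors 9 lay above and 3 below both controls. Prf1 among the latter, which forms pores in target cells, stood at 2.22 and 3.29 FPKM against 0.541 and 0.289 (-1.40, SE 0.27). Prf1 passed the filter only through the controls and could lie only below.

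Downstream of cytokine receptors, Stat5a, which carries the IL-2 signal to Foxp3, stood at 34.8 and 31.3 FPKM against 61.5 and 81.9 (1.08, SE 0.22), and the kinase Jak3 at 55.0 and 48.4 against 85.4 and 90.7. Both are from a list of IL-2 and STAT5 pathway genes. Of its 17 tested members 8 lay above and 1 below both controls (median 0.25, and 0.05 with the trend removed). Il1r2, the decoy receptor for IL-1, stood at 131 and 157 FPKM against 452 and 334 (1.43, SE 0.25, and 1.66 with the trend removed). Il12rb2, the receptor chain of type 1 T cells, lay the other way, at 5.03 and 8.51 FPKM against 1.45 and 0.330 (-2.07, SE 0.40). Of 29 members of the cytokine receptor list that holds Il1r2 and Il12rb2, 17 lay above and 2 below both controls (median 0.43, and 0.17 with the trend removed). The NFAT factor Nfatc2 stood at 4.80 and 8.0 FPKM against 20.4 and 18.8 (1.51, SE 0.27, and 1.0 with the trend removed). The list of T cell receptor signalling genes that holds Nfatc2 showed no common direction: 12 of 33 lay above and 5 below, with a median of 0.10 and of -0.09 with the trend removed and without control replicate 2. The phosphatase Ptpn6 (208 and 267 against 112 and 142 FPKM) and the kinase Txk (11.8 and 10.02 against 4.59 and 3.18) were lower. Calcium genes included the store channel Itpr3 at 0.317 and 0.601 FPKM against 4.25 and 3.47 (1.74, SE 0.25, and 1.08 with the trend removed) and the plasma membrane pump Atp2b1 at 3.32 and 3.998 against 12.0 and 11.1 (1.43, SE 0.22). Itpr3 passed the filter on low values only through SRC-3KO and could lie only above.

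Genes that keep T cells in a resting, recirculating state stood lower. Of 20 tested members 11 lay below both controls and 0 above (median -0.52, and -0.65 with the trend removed), with 8 lower at an unadjusted p under 0.05 and 0 called by limma. Ly6c1, a surface protein of resting and memory T cells, stood at 130.3 and 163 FPKM against 35.3 and 49.3 (-1.78, SE 0.25, adjusted p = 0.121). Ccr7, the chemokine receptor for lymph node entry, stood at 207 and 246 FPKM against 130.5 and 118. B cells also express Bach2 and Ccr7, the B cell sums moved the same way, and their part was not tested. Effector cytokines and chemokines leaned down, with 11 of 21 below and 4 above. The median was -0.59, -0.28 with the trend removed, and -1.01 and -1.26 without SRC-3KO replicate 1 and 2. Beside Ccl1, Ccl3 and Ccl4, the Ccr6 ligand Ccl20 stood at 16.0 and 8.69 FPKM against 1.29 and 1.87 (-2.32, SE 0.34). The granule genes Gzmc, at 4.74 and 2.89 FPKM against 0.303 and 0.291, and Nkg7, at 151 and 92.3 against 50.4 and 28.1, were lower, and Klrg1, a receptor of mature effector Tregs, was higher at 10.8 and 8.16 against 18.7 and 28.3. Gzmc passed the filter only through the controls. Of 12 tested members of their cytotoxic list 6 lay below and 3 above both controls (median -0.61, and -0.36 with the trend removed). The list summed to 1499 and 1195 FPKM in the controls against 1455 and 1519 in SRC-3KO.

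**Figure D4:**
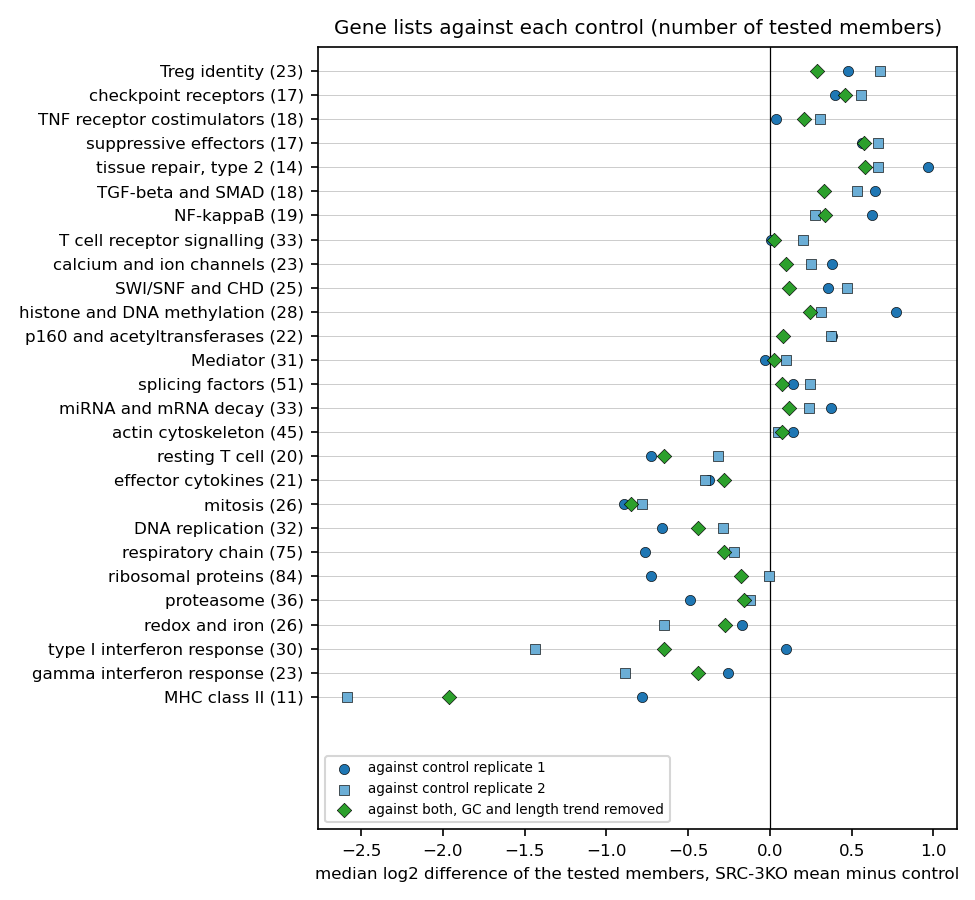
Median log2(FPKM + 1) difference of the tested members of 27 gene lists (number in brackets), SRC-3KO mean minus control replicate 1 (circles) or 2 (squares), and against both with the trend in GC content and length removed (diamonds). Mitosis genes sit near -0.85 on all 3 measures, ribosomal proteins and the type I interferon response differ between the controls, and the chromatin lists move toward 0 with the trend removed.

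Mitosis genes were lower in SRC-3KO by a similar median against each control. Of 26 tested mitosis genes 22 lay below both controls and 0 above, against 24.9% and 27.5% of all tested genes, with a median of -0.88. Of the 32 listed, 15 were under 1 FPKM in each SRC-3KO library, against 7 and 5 in control replicates 1 and 2. Members that passed the filter only through the controls, such as Cdca3, could lie only below. None of the 26 was called by limma, and 17 were lower at an unadjusted p under 0.05, against 780 of all 12859 genes. The median was -0.89 against control replicate 1, -0.78 against replicate 2 and -0.85 with the trend in GC content and length removed. Without control replicate 1, 3 were called lower where 2.38% of all genes were, and without control replicate 2, 9 where 12% were. Without either SRC-3KO replicate 0 were called by limma. Aurkb, a kinase of the chromosomal passenger complex, stood at 9.45 and 7.36 FPKM against 1.92 and 1.76 (-1.72, SE 0.24), and Ube2c, the ubiquitin conjugating enzyme of anaphase, at 6.74 and 7.24 against 1.66 and 1.61. Stmn1, which takes microtubules apart, stood at 53.8 and 34.7 FPKM against 13.3 and 12.6 (-1.66, SE 0.26), and Cdca3, a trigger of mitotic entry, at 2.44 and 2.30 against 0.0759 and 0.251. The other 4, Cenpa, Kif23, Tuba1b and Tubb5, overlapped between groups and are named after their values were seen; Tubb5, a tubulin chain, stood at 122 and 107.5 FPKM against 119 and 116. Cell cycle transcripts also come from cycling cells of other types, the B lineage sums moved the same way, and their part was not tested.

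DNA replication genes followed, with 26 of 32 below and 2 above, against 24.9% and 27.5% of all tested genes (median -0.44, and -0.44 with the trend removed). The median was -0.66 against control replicate 1 and -0.29 against replicate 2. Rrm2, the regulated subunit of ribonucleotide reductase, stood at 49.3 and 38.8 FPKM against 15.8 and 17.4 (-1.35, SE 0.21, limma adjusted p = 0.121). Ccna2, the S phase cyclin, stood at 9.53 and 9.10 FPKM against 3.90 and 4.15, and E2f1, a factor that switches S phase genes on, at 14.2 and 12.9 against 7.15 and 6.55. Of the cyclin partners, Cdk6 stood at 20.7 and 35.9 FPKM against 8.23 and 6.60 (-1.75, SE 0.31, and -2.24 with the trend removed), and the inhibitor Cdkn1a at 61.4 and 147 against 33.4 and 26.3. The pocket protein Rbl2, which holds E2F genes silent, stood at 7.49 and 7.65 FPKM against 13.3 and 14.3 (0.79, SE 0.20). Cdk6, Cdkn1a and Rbl2 are from a list of D cyclins, their partners and inhibitors that had no common direction. Of its 19 tested members 3 lay above both controls and 4 below (median -0.14). The replication histones Hist1h2ao and Hist1h2ap are near copies and share reads, and stood at 106 and 51.0, and 117 and 55.4, in control against 17.9 and 13.9, and 19.6 and 15.3, in SRC-3KO. Of 13 tested members of the histone list 7 lay below both controls and 2 above. The 18 listed histone genes summed to 1418 and 1018 FPKM in the controls and 1067 and 1071 in SRC-3KO, so these sums overlapped.

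**Figure D5:**
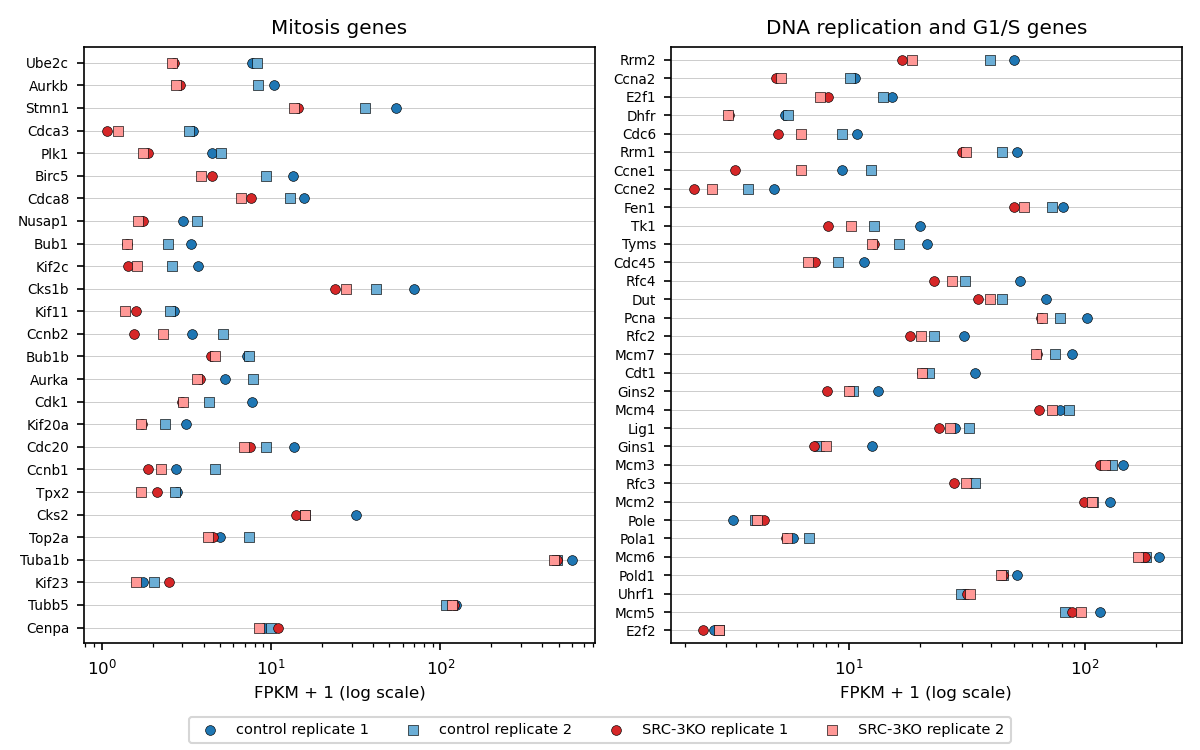
FPKM + 1 (log axes) of the 26 mitosis genes (left) and 32 DNA replication and G1/S genes (right) tested, ordered by limma p, 1 point per library. Both red points lie left of both blue points for 22 genes on the left and 26 on the right, with wider gaps at the top, as for Aurkb and Rrm2.

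Several lists of chromatin and RNA regulators had medians above 0 that moved toward 0 when the trend in GC content and length was removed, and others had no lean. Of 28 histone and DNA methylation enzymes, with a median length of 7552 bases, 22 lay above both controls and 1 below (median 0.58), and removing the trend took the median to 0.24. Kmt2d, a histone H3K4 methyltransferase, stood at 0.365 and 0.618 FPKM against 2.95 and 3.66 (1.53, SE 0.25, and 0.67 with the trend removed), and the maintenance methyltransferase Dnmt1 at 15.5 and 18.1 against 29.9 and 32.0. Of 25 SWI/SNF and CHD remodellers 13 lay above and 0 below (median 0.42, and 0.11 with the trend removed), among them the ATPase Smarca4 at 11.8 and 13.9 FPKM against 26.4 and 29.8. The p160 coactivators and their acetyltransferase partners, the family of SRC-3, had 12 of 22 above and 2 below (median 0.37, and 0.08 with the trend removed). In it the acetyltransferase Ep300 stood at 1.35 and 2.57 FPKM against 7.99 and 7.20 (1.57, SE 0.29, and 1.06 with the trend removed), and Ncoa6 at 0.948 and 0.775 against 3.31 and 3.05. Members that passed the filter on low values only through SRC-3KO, such as Kmt2d and Ncoa6, could lie only above. Of the 32 listed histone and DNA methylation genes, 10 and 7 were under 1 FPKM in the controls, against 4 and 3 in SRC-3KO. Histone deacetylases and sirtuins had 4 of 15 above and 2 below (median 0.06), with 0 at an unadjusted p under 0.05. Mediator subunits, with 11 of 31 above and 9 below, had medians of -0.03 against control replicate 1 and 0.10 against replicate 2. Splicing factors had 24 of 51 above and 7 below (median 0.21, 0.07 with the trend removed, and -0.03 with the trend removed and without control replicate 2), with U2af2, which binds the 3' splice site, at 14.99 and 14.7 FPKM against 30.4 and 27.7 and unaltered at 0.92 by the trend removal. Genes of miRNA action and mRNA decay had 21 of 33 above and 1 below (median 0.29, and 0.11 with the trend removed), with the decay helicase Upf1 at 10.2 and 13.4 FPKM against 28.2 and 29.5. None of these chromatin and RNA genes was called by limma. At an unadjusted p under 0.05 there were 12 histone and DNA methylation genes, 11 remodellers, 8 p160 and acetyltransferase genes and 9 decay genes higher.

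Housekeeping genes with short transcripts stood lower, mainly against control replicate 1. Of 75 nuclear respiratory chain genes, with a median length of 1141 bases, 60 lay below both controls and 0 above. Of all protein-coding genes tested, 38.6% of those of 1000 to 2000 bases and 53.7% of those of 500 to 1000 lay below both. Their median was -0.76 against control replicate 1, -0.22 against replicate 2 and -0.28 with the trend removed. Ndufc1 of complex I stood at 64.3 and 46.4 FPKM against 30.2 and 30.1, and Atp5k of the ATP synthase at 197 and 149 against 101 and 88.6. Ribosomal protein genes, with a median length of 1048 bases, had 36 of 84 (42.9%) below and 0 above, a share below near that of genes of such length. Their median was -0.72 against control replicate 1 and -0.0047 against replicate 2, and 0.06 with the trend removed and without control replicate 1. Proteasome subunits had 25 of 36 below and 2 above (median -0.33, and -0.16 with the trend removed). The antioxidant enzymes Gpx1 and Prdx1 were even in control, at 521 and 560.2 FPKM against 318 and 288, and at 419 and 469 against 249.9 and 260.0. The ferritin light chain Ftl1, which macrophages hold in quantity, was high in control replicate 2, at 1116 and 2433 against 663 and 537. Among polyamine genes, the rate-limiting Odc1 stood at 274 and 258 FPKM against 665 and 525 (1.15, SE 0.25, and 1.22 with the trend removed), and Sat1, which drives polyamine export and breakdown, at 85.8 and 98.4 against 57.0 and 49.5 (-0.78, SE 0.19). In lipid metabolism Insig1, the brake on sterol synthesis, stood at 14.2 and 11.8 FPKM against 22.9 and 24.7, and Npc2, which moves cholesterol out of lysosomes, at 64.2 and 93.8 against 42.4 and 44.1.

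Interferon response genes depended on which control was used. None of the interferon genes below was called by limma. At an unadjusted p under 0.05, 6 type I and 6 gamma response genes were lower, against 780 of all 12859 genes tested. Of 30 type I response genes 14 lay below both controls and 0 above, yet the median was 0.10 against control replicate 1 and -1.44 against replicate 2, and 0.16 when the genes were filtered and fitted without control replicate 2. Isg20, an exonuclease against viral RNA, stood at 20.3 and 31.8 FPKM against 10.2 and 7.56 (-1.44, SE 0.29), and Usp18, which curbs interferon signalling, at 60.0 and 95.1 against 22.9 and 35.4 (-1.38, SE 0.32), and both were lower against each control. Zbp1, a sensor of unusual nucleic acids, stood at 48.1 and 137 FPKM against 24.4 and 21.3. The interferon gamma list had 14 of 23 below and 1 above, with a median of -0.25 against control replicate 1 and -0.89 against replicate 2. Irf8, a factor of B and myeloid cells that T cells also express, stood at 177 and 210.0 FPKM against 98.2 and 108 (-0.90, SE 0.20), and the GTPase Irgm1 at 159.5 and 234 against 101 and 111. The myeloid sums were high in the same control replicate 2, and the part of those cells in the interferon lists was not tested.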

How the data were processed

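Per the submitters' processing notes, the authors used STAR, Trim Galore, FastQC, edgeR and featureCounts on build mm10, and which tool made which table is not stated. The FPKM values were deposited as one table, which the authors made with StringTie per the file headers. The annotation release and strand setting appear in none of the sources used here, and overlapping and antisense genes cannot be told apart. No counts were used and read depth is unknown, so no counting intervals are given. IDs were matched to GENCODE M21 (55227 of 55487) for positions, longest transcripts and GC content.

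FPKM was taken as log2(FPKM + 1), and genes with at least 1 FPKM in 2 libraries were fitted in limma 3.58.1 (R 4.3.3) with an intensity trend on 4 libraries, 2 per group, with Benjamini-Hochberg adjustment and a threshold of 0.05. The steps were tested on simulated data. Alternatives were pseudocounts of 0.1 and 5, filters, 2 scalings, removal of each library's trend with GC content and length (splines), no intensity trend, robust moderation, protein-coding genes only, a replicate block, and each library left out. Trend removal combined with leaving out a control was added after seeing the data.

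Genes named are Ncoa3, Foxp3, those called, the 15 protein-coding genes with the widest gap between the groups in each direction with a mean of at least 10 FPKM in either group (no antigen receptor segments, ribosomal protein or unnamed genes), up to 4 genes per list by limma p, and cell type markers. Some of these are not reported here. The comparison and the gene lists were chosen with earlier results of these data known. List counts cover the members that passed the filter. A member that passed through the controls alone, or through SRC-3KO alone, could lie only on that group's side. Differences of low genes are understated on this scale.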

Additional observations from a re-analysis of the deposited data

How the results depend on the processing

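With 2 libraries per group the counts of called genes depended on the processing. From 2 higher and 12 lower, they came to 11 and 19 with the filter at 5 FPKM, 1 and 0 with no filter (3171 genes at an unadjusted p under 0.05 in limma), 0 and 4 over protein-coding genes only (1752 at an unadjusted p under 0.05), and 2 and 5 with a pseudocount of 0.1. Scaling by median-of-ratios gave 2 and 4. Leaving out 1 library gave 5 to 1015 higher and 25 to 1495 lower. Removing the trend in GC content and length as well gave 124 and 304 without control replicate 1 and 125 and 136 without control replicate 2. The cause was not tested, except that fewer or more genes are tested under the filters. Trend removal alone, the scaling to the protein-coding total, a pseudocount of 5, no intensity trend and robust moderation left both counts within 1.5 times. The protein-coding scaling moved the median of all genes from -0.02 to 0.15. Under it and without SRC-3KO replicate 2 the difference of Ncoa3 turned from -0.18 to 0.013 and 0.19, and without SRC-3KO replicate 1 it was -0.56. Of the 14 genes, the call and its direction held for 14 with the filter at 5 FPKM, 13 with a pseudocount of 5, 11 with the trend removed, 10 with the protein-coding scaling, 7 with a pseudocount of 0.1, 6 under median-of-ratios and 1 with no filter.

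The replicate numbers P1 and P2 are shared by both groups, but no label says what they mark. Deviations of same-numbered libraries from their group means correlated at 0.0357 over 12859 genes, so the numbers were not taken as a pairing. With the number as a replicate block, 28 genes were called higher and 44 lower, among them the same 14.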

Other observations

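Early response genes and regulators of effector Tregs also stood above both controls in part, and limma called 0 of them. Of 28 immediate early genes 14 lay above and 3 below both controls, with 7 higher at an unadjusted p under 0.05 (median 0.31, and 0.20 with the trend in GC content and length removed). Cd83, a surface protein of activated lymphocytes, stood at 53.5 and 58.0 FPKM in the controls against 121 and 135 in SRC-3KO (1.18, SE 0.19). Zfp36l1, which marks mRNAs for decay, stood at 38.4 and 44.0 FPKM against 83.2 and 85.1. Of 27 effector Treg factors 12 lay above and 3 below, with 7 higher and 1 lower at an unadjusted p under 0.05. Prdm1, which encodes Blimp-1, stood at 9.75 and 10.5 FPKM against 20.6 and 18.4 (0.88, SE 0.19, and 0.64 with the trend removed). Zc3h12a, the RNase Regnase-1, stood at 0.775 and 0.875 FPKM against 2.59 and 3.31, and passed the filter on low values only through SRC-3KO. S100a4, a calcium-binding protein of motile cells, was even in control and lower in SRC-3KO, at 27.8 and 29.6 FPKM against 10.5 and 7.12 (-1.62, SE 0.24), while Lgals3, a galectin abundant in macrophages, stood at 25.0 and 389 against 7.16 and 2.78.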
